A study of Homo sapiens with 6 samples.

Results

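The 10 genes described here encode the extracellular ligands NODAL, GDF3 and INHBA, the co-receptor TDGF1, the secreted antagonists LEFTY1, LEFTY2 and CER1, and the intracellular SMAD proteins SMAD2, SMAD3 and SMAD7. They are 10 of the 53712 gene names in the count table and were taken by name. They were put together with the UNC1999 against UNC2400 result of these libraries already known, so that contrast chose them and its values are given for them as a description, with no test. The cells were H9, a widely used line of human embryonic stem cells, in RSeT medium, which is sold for keeping such cells in a naive-type state. From 24 h after passage all cells of both groups were given 10 nM DZNep, which blocks S-adenosylhomocysteine hydrolase, and 5 nM trichostatin A (TSA), which blocks histone deacetylases. The UNC1999 group (3 libraries) also received 2.5 µM UNC1999, which inhibits EZH2 and EZH1, the enzymes that methylate histone H3 in Polycomb repressive complexes. The UNC2400 group (3 libraries) received 2.5 µM UNC2400, the N-methylated analog of low activity that served as the control compound. Both were collected after 48 h, and no analysed group lacked DZNep and TSA or received neither compound. One cell line was used, and the labels do not say that replicates were separate cultures, so the spread and the p-values below measure these libraries and may be partly technical.

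NODAL is a ligand of the TGF-beta family that binds activin receptors together with the co-receptor TDGF1 (CRIPTO). The receptors phosphorylate SMAD2 and SMAD3, which join SMAD4 and act in the nucleus with partners such as FOXH1. LEFTY1, LEFTY2 and CER1 block the ligand outside the cell and SMAD7 blocks the receptors inside it, and several of these inhibitors are themselves induced by the pathway. In human pluripotent stem cells this signal is known to help maintain the undifferentiated state, and in the early embryo it patterns the primitive streak and endoderm.

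Total counts per library were 29699441 to 42345448 in the UNC2400 group and 33522942 to 34481593 in the UNC1999 group, so that a count of 0 allowed up to 0.0708 to 0.101 CPM (counts divided by the library total and scaled to a common size), which covers counting error only. On the first principal component of log2 CPM, which held 67.8% of the variance, UNC1999 replicate 1 scored 20.1, the other UNC1999 libraries 39.3 and 41.4, and the UNC2400 libraries -35.2 to -31.6. Values of the 10 genes without UNC1999 replicate 1 are therefore given where they moved. The labelled cell type was checked by 8 pluripotency markers, all at 1 CPM or more in both groups. Their summed level was 7307 to 7419 CPM in the UNC2400 libraries and 6079 to 6738 CPM in the UNC1999 libraries. In edgeR's test, described below, 4 of the 8 fell and 0 rose, where 25.9% of all genes tested fell. POU5F1 was among those that fell, from 1393 to 1024 CPM, at -0.44 ± 0.06 (log2, SE, edgeR adjusted p = 1.9e-05).

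For 6 of the 10 genes every UNC1999 library was above every UNC2400 library, for 2 every UNC1999 library was below, and for 2 the groups overlapped. These counts carry no weight of their own, since the genes were chosen on this contrast and the groups did not overlap for 60.6% of all 17596 genes tested, with the UNC1999 group above for 30.9% and below for 29.7%. CER1 was 15.7-fold higher, NODAL, LEFTY2, LEFTY1, SMAD3 and SMAD7 were 1.83-fold to 1.36-fold higher, and GDF3 and SMAD2 were 0.8-fold and 0.873-fold the UNC2400 level. TDGF1 and INHBA were the genes that overlapped. The median log2 fold change was 0.46 over the 10 genes and 0.02 over all genes tested. In RNA from a whole culture, fewer expressing cells and less RNA per cell cannot be told apart.

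**Figure D1:**
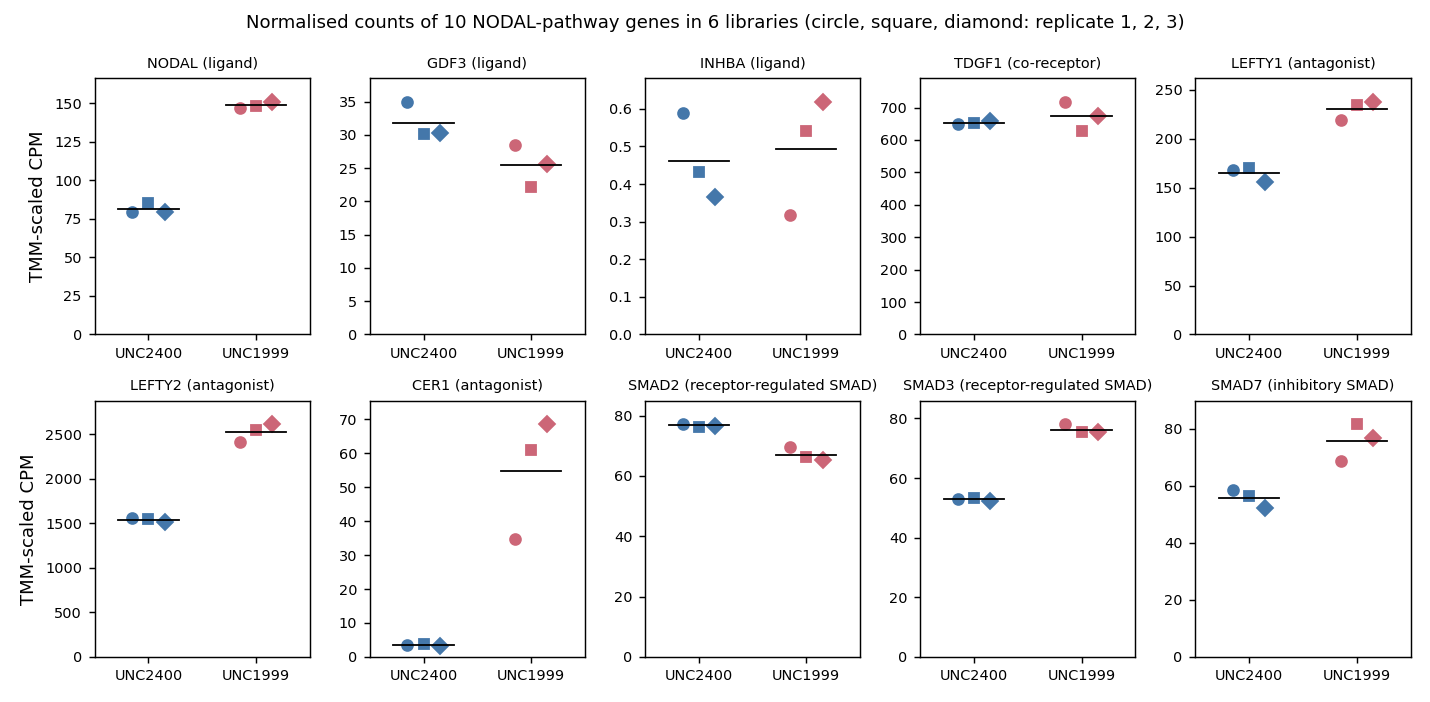
Each panel shows 1 gene, with its level in CPM scaled by TMM factors (y axis, from 0) in the UNC2400 and UNC1999 groups (x axis); circles, squares and diamonds are replicates 1, 2 and 3, and the line is the mean of 3 libraries. The UNC1999 points lie above all UNC2400 points for NODAL, LEFTY1, LEFTY2, CER1, SMAD3 and SMAD7, below them for GDF3 and SMAD2, and the groups overlap for INHBA and TDGF1.

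NODAL and CER1 are the ligand and the antagonist with the largest fold changes of their kind here, and GDF3 is the ligand that was lower. The 250 bases before their transcription starts are shown so that the starts of these genes, which differed in opposite directions, can be read side by side. They come from RefSeq on GRCh38.p14, 5′ to 3′ on the gene's strand, which is the minus strand for all 3. Capitals mark matches on either strand to CAGAC, a short SMAD-binding element, or to TGTNNATT, a form of the FOXH1 motif.
NODAL promoter, chr10:70441682-70441931: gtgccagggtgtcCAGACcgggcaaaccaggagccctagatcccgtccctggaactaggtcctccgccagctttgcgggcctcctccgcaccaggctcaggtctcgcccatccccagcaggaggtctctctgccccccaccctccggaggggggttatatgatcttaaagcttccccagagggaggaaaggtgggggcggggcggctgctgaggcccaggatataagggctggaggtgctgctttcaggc
CER1 promoter, chr9:14722734-14722983: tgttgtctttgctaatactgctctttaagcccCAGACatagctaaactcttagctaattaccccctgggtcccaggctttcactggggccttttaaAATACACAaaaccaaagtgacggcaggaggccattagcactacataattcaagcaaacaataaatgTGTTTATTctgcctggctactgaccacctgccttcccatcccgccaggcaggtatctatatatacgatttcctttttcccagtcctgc
GDF3 promoter, chr12:7695776-7696025: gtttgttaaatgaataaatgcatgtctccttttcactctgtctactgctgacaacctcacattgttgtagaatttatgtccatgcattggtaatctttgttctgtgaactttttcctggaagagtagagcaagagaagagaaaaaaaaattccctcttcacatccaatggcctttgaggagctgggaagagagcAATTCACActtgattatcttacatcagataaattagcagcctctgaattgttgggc
CAGAC occurred once upstream of NODAL, at 1 place upstream of CER1 and nowhere in the GDF3 window, against 36.8% of 15840 protein-coding promoters that hold at least 1. TGTNNATT had 2 matches in the CER1 window and 1 in the GDF3 window, and 7.11% of all promoters hold it. The stricter forms TGTGGATT, which TGTNNATT includes, and GTCTAGAC were found in 0.524% and 0.215% of promoters and in none of the 8 matched windows of the 10 genes. CpG dinucleotides numbered 9 for NODAL, 3 for CER1 and 0 for GDF3, with a median of 17 over all promoters. A match describes letters in a window and is not evidence of binding.

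NODAL itself was measured at 79.7, 85.2 and 79.4 CPM in UNC2400 replicates 1 to 3 and at 147, 148 and 151 CPM in UNC1999 replicates 1 to 3. Every UNC1999 library was above every UNC2400 library, and the UNC1999 libraries differed among themselves by only a few CPM. The mean went from 81.4 ± 3.26 to 149 ± 2.31 CPM (SD, n = 3 each), or 0.87 ± 0.05 on the log2 scale (SE; 95% interval 0.76 to 0.97). UNC1999 replicate 1, which stood apart on the first principal component and gave the lowest CER1 value of its group, lay with the other UNC1999 libraries for NODAL.

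GDF3, a ligand related to NODAL that shares its receptors and is abundant in pluripotent cells, was at 35, 30.2 and 30.3 CPM in the UNC2400 libraries and at 28.5, 22.2 and 25.7 CPM in the UNC1999 libraries. The groups did not overlap, but the highest UNC1999 value and the lowest UNC2400 value were close. Its mean fell from 31.8 ± 2.75 to 25.5 ± 3.14 CPM (SD, n = 3 each), with a log2 fold change of -0.32 ± 0.08 (SE; 95% interval -0.50 to -0.14). Leaving out 1 library gave -0.43 (without UNC1999 replicate 1) to -0.24 (without UNC1999 replicate 2).

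INHBA encodes the beta A subunit of activin A, a ligand that signals through the same receptors without TDGF1. It was close to the detection limit, with 17, 18 and 11 counts in the UNC2400 libraries and 11, 19 and 21 counts in the UNC1999 libraries. These correspond to 0.59, 0.431 and 0.365 CPM and to 0.319, 0.54 and 0.619 CPM. The groups overlapped, and UNC1999 replicate 1 was the lowest of all 6 libraries. The log2 fold change was 0.10 with a wide 95% interval of -0.65 to 0.86, so a fall, no difference or a rise within it cannot be told apart. It was 0.31 without UNC1999 replicate 1 and -0.11 without UNC1999 replicate 3.

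TDGF1, the co-receptor that NODAL needs, was one of the most abundant of the 10 genes. It was at 648, 653 and 658 CPM in the UNC2400 libraries and at 718, 629 and 675 CPM in the UNC1999 libraries. UNC1999 replicate 1 was the highest and UNC1999 replicate 2 the lowest of the 6, with all UNC2400 libraries between them. The means were 653 ± 4.91 and 674 ± 44.6 CPM (SD, n = 3 each) and the log2 fold change was 0.05 with a 95% interval of -0.08 to 0.17, and -0.02 without UNC1999 replicate 1. Of the 50-base stretches in TDGF1 transcripts, 34.3% also occur in another gene of the GENCODE annotation, 34% in its processed copy TDGF1P3, so its reads may be split between names.

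LEFTY1 and LEFTY2 are neighbouring genes for near-identical secreted antagonists that bind NODAL and its co-receptor. Their coding sequences, 1098 bases each, are 97.2% identical over the aligned bases, with an identical run of up to 300 bases. Reads that fall in such runs cannot be assigned to 1 of the genes. Of 50-base stretches, 46.8% of those in LEFTY1 transcripts occur in another annotated gene, most of them (45.3%) in AL117348.2, and 24.4% of those in LEFTY2 transcripts do, most of them (20.7%) in LEFTY1. How the authors' counting treated reads with several matches is not given in the sources used here, so the separate levels of LEFTY1 and LEFTY2 are uncertain.

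LEFTY2 was at 1563, 1549 and 1514 CPM in the UNC2400 libraries and at 2407, 2543 and 2613 CPM in the UNC1999 libraries. LEFTY1 was at 168, 170 and 156 CPM in the UNC2400 libraries and at 219, 235 and 238 CPM in the UNC1999 libraries. For both genes all UNC1999 libraries were higher than all UNC2400 libraries, and UNC1999 replicate 1 was the lowest of its group. LEFTY2 rose from 1542 ± 25.1 to 2521 ± 105 CPM (SD, n = 3 each), or 0.71 ± 0.06 on the log2 scale (SE; 95% interval 0.58 to 0.83). LEFTY1 rose from 165 ± 7.2 to 231 ± 9.97 CPM (SD, n = 3 each), or 0.49 ± 0.05 on the log2 scale (SE; 95% interval 0.37 to 0.60). With the counts of both genes summed, which does not depend on how reads were split between them, the log2 fold change was 0.69. Reads left uncounted or counted under another name such as AL117348.2 are not in this sum, and most of the summed counts were LEFTY2. LEFTY1 made up 9.71%, 9.87% and 9.37% of the summed LEFTY counts in the UNC2400 libraries and 8.35%, 8.46% and 8.35% in the UNC1999 libraries. The share of LEFTY1 was thus lower in each UNC1999 library than in any UNC2400 library.

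The level of LEFTY2 in CPM was 19 ± 0.709 times that of NODAL in the UNC2400 group and 17 ± 0.493 times in the UNC1999 group (SD, n = 3 each; CPM is not corrected for gene length, so only the comparison between groups is meaningful). Ligand and antagonist therefore differed in the same direction and by similar factors, NODAL by the larger one.

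CER1, a secreted antagonist of NODAL and of bone morphogenetic proteins that is known from anterior endoderm, was at 3.54, 3.74 and 3.15 CPM in the UNC2400 libraries (102, 156 and 95 counts). In the UNC1999 libraries it was at 34.6, 60.9 and 68.6 CPM (1191, 2143 and 2328 counts). The UNC1999 libraries lay far above all UNC2400 libraries but differed among themselves, with UNC1999 replicate 1 well below the other two. Its mean went from 3.48 ± 0.299 to 54.7 ± 17.9 CPM (SD, n = 3 each), or 3.97 ± 0.21 on the log2 scale (SE; 95% interval 3.53 to 4.40). Without UNC1999 replicate 1 the log2 fold change was 4.19. The ratio of NODAL to CER1 in CPM was 22.5, 22.8 and 25.2 in the UNC2400 libraries and 4.25, 2.43 and 2.2 in the UNC1999 libraries.

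Markers of the cell types in which CER1 is known to be active were read beside it. The 12 endoderm and hypoblast markers summed to 42.1 to 44.1 CPM in the UNC2400 libraries and to 27.4 to 31 CPM in the UNC1999 libraries. Most of this was PDGFRA, at 40.1 CPM in the UNC2400 group and 25.6 CPM in the UNC1999 group, and 2 of the 12 reached 1 CPM in the UNC2400 group and 1 in the UNC1999 group. SOX17, which defines endoderm, had at most 2 counts in any library, and TTR had 0 counts in all. Of the 4 markers that could be tested 1 rose, GATA4, and 2 fell, PDGFRA and AFP, which went from 1.63 ± 0.453 to 0.656 ± 0.0868 CPM (SD, n = 3 each). GATA4 was so low in the UNC2400 libraries that it could pass the low-count filter through its higher group alone, so its call is a description only. GATA4, GATA6, HNF4A and APOA2 were low but higher in CPM in every UNC1999 library. GATA4 had 9, 11 and 9 counts against 17, 28 and 33. GATA6 had 0, 2 and 1 counts against 7, 11 and 8. HNF4A had 1, 1 and 2 counts against 5, 4 and 11. APOA2 had 0, 4 and 0 counts against 4, 11 and 10. PDGFRA and AFP were lower in every UNC1999 library, and the other markers of this list overlapped between the groups. The 8 primitive streak markers summed to 7.67 to 10.4 CPM and 9 to 11.6 CPM, mostly MIXL1, and MSGN1 had 0 counts in all libraries. The part of these genes in the CER1 result was not tested. The other lists summed to 2.88 to 3.38 and 2.67 to 3.07 CPM (trophoblast, CGB and VGLL1 at 0), 26.5 to 29.9 and 19.1 to 19.6 CPM (neuroectoderm), and 265 to 296 and 178 to 195 CPM (fibroblast or feeder, mainly collagen genes).

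SMAD2 and SMAD3 are the SMAD proteins that activin-type receptors phosphorylate, and their messages differed in opposite directions. SMAD2 was at 77.2, 76.4 and 76.7 CPM in the UNC2400 libraries and at 69.7, 66.3 and 65.2 CPM in the UNC1999 libraries. SMAD3 was at 52.9, 53.4 and 52.4 CPM in the UNC2400 libraries and at 78.1, 75.3 and 75.3 CPM in the UNC1999 libraries. Neither gene overlapped between the groups, and the UNC2400 libraries were within about a CPM of each other for both. SMAD2 went from 76.8 ± 0.407 to 67.1 ± 2.37 CPM (SD, n = 3 each), or -0.19 ± 0.05 on the log2 scale (SE; 95% interval -0.30 to -0.09). SMAD3 went from 52.9 ± 0.512 to 76.2 ± 1.6 CPM (SD, n = 3 each), or 0.53 ± 0.05 on the log2 scale (SE; 95% interval 0.42 to 0.63). The ratio of SMAD3 to SMAD2 in CPM was 0.689 ± 0.0085 in the UNC2400 group and 1.14 ± 0.0153 in the UNC1999 group (SD, n = 3 each), and the difference of their log2 fold changes was 0.72. Without UNC1999 replicate 1 they were -0.24 for SMAD2 and 0.49 for SMAD3. With offsets for gene length and GC content, SMAD2 turned to 0.13 and SMAD3 went to 0.72, so the direction of SMAD2 depends on the scaling while their difference was 0.59 with the offsets.

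SMAD7 encodes the inhibitory SMAD that binds the activated receptors and recruits ubiquitin ligases to them. It is shown with its upstream window because CAGAC occurred at 2 places there, in capitals, the most in the 8 matched windows (RefSeq, GRCh38.p14, minus strand). At least 1 CAGAC is held by 36.8% of all promoters, and the share with 2 was not counted. The window was picked for its matches, which are not evidence of binding.
SMAD7 promoter, chr18:48950966-48951215: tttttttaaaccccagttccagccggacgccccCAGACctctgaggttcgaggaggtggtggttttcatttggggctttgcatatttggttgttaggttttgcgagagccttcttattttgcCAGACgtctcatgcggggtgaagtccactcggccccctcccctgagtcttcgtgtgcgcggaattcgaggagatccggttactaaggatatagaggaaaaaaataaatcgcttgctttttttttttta
SMAD7 was at 58.5, 56.5 and 52.1 CPM in the UNC2400 libraries and at 68.7, 81.6 and 76.7 CPM in the UNC1999 libraries. All UNC1999 libraries were above all UNC2400 libraries, with UNC1999 replicate 1 the closest to them. The means were 55.7 ± 3.3 and 75.7 ± 6.55 CPM (SD, n = 3 each), or 0.44 ± 0.06 on the log2 scale (SE; 95% interval 0.31 to 0.58).

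**Figure D2:**
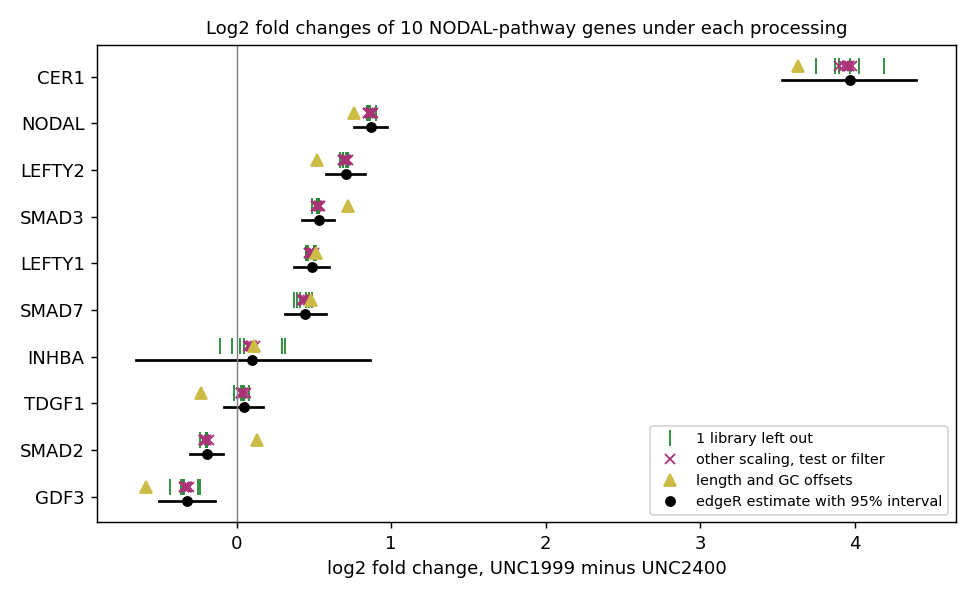
The x axis is the log2 fold change (UNC1999 minus UNC2400) and each row is 1 gene. Black points with bars are the edgeR estimates with 95% intervals from 3 libraries a group. Green ticks leave out 1 library, and yellow triangles use length and GC offsets. Crosses use another scaling, filter, test or the replicate block, and 1 cross per gene is the authors' deposited fold change. CER1 lies between 3.63 and 4.19 under all of them, while SMAD2 moves from -0.19 to 0.13 and TDGF1 from 0.05 to -0.23 with the offsets.

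Levels were compared between genes as CPM per kilobase of joined exons. In the UNC2400 group LEFTY2 was the most abundant at 645 ± 10.5, followed by TDGF1 at 217 ± 1.63, LEFTY1 at 87.1 ± 3.81, NODAL at 48.1 ± 1.93 and GDF3 at 25.7 ± 2.22 (CPM per kilobase, SD, n = 3). SMAD7 at 11.1 ± 0.655, SMAD3 at 5.8 ± 0.0562, CER1 at 2.86 ± 0.246, SMAD2 at 2.11 ± 0.0112 and INHBA at 0.0556 ± 0.014 followed. The antagonist LEFTY2 and the co-receptor were thus well above the ligands. In the UNC1999 group CER1 came after NODAL at 45 ± 14.7, above GDF3 at 20.6 ± 2.54 and SMAD7 at 15 ± 1.3, and the other genes kept their order. Neighbours in both orders did not overlap between libraries. SMAD2 has annotated 3′ ends so far apart that its length is uncertain: with the shortest principal transcript, 12075 bases in place of 36366, it was at 6.36 ± 0.0337 and above CER1 in the UNC2400 group, and with principal transcripts GDF3 and SMAD7 overlapped in the UNC1999 group.

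**Figure D3:**
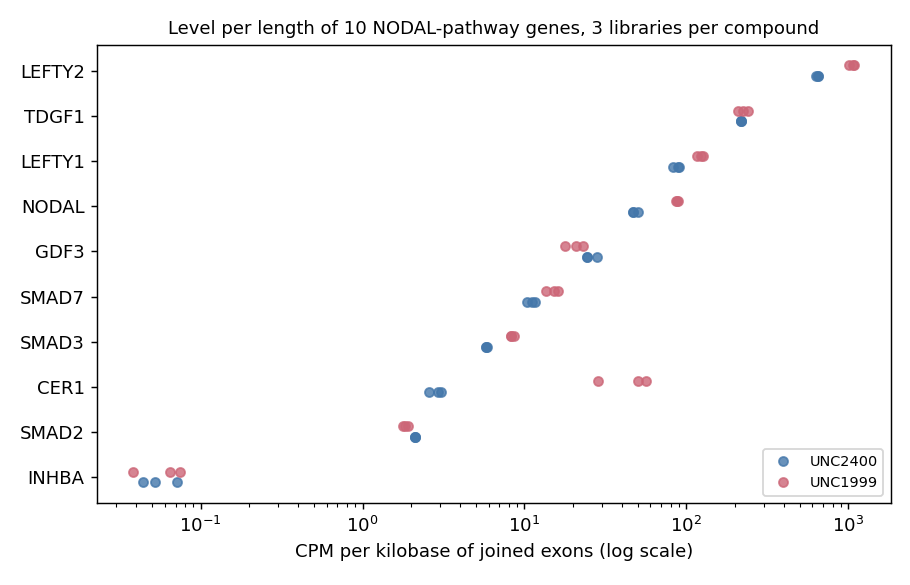
The x axis gives the level in CPM per kilobase of joined exons on a log scale and each row is 1 gene, ordered by its level in the UNC2400 group; points are single libraries, 3 per compound. CER1 moves from 2.86 to 45 on average and passes SMAD3, SMAD7 and GDF3.

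Other genes of the pathway were read from 7 lists by role, 78 genes in all, of which 65 could be tested. In edgeR's quasi-likelihood test 23 of the 65 rose, 14 fell and 28 did not pass at an adjusted p of 0.05, where 52.7% of all genes tested passed, 26.8% higher and 25.9% lower. The median log2 fold change was 0.12, against 0.02 over all genes tested. These lists share the contrast with the 10 genes and are described by their counts.

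Among receptors and co-receptors 3 of 9 tested genes rose and the other 6 did not pass (median log2 fold change 0.12). ACVR1B (ALK4), the type I receptor through which NODAL and activin signal, went from 30.7, 29.7 and 29.9 CPM to 44.9, 50.5 and 49.8 CPM, by 0.69 ± 0.06 on the log2 scale (SE; edgeR adjusted p = 1.12e-07). All UNC1999 libraries were above all UNC2400 libraries. TGFBR3, a co-receptor for TGF-beta and inhibin, rose by 0.42 ± 0.12 (edgeR adjusted p = 0.0079), and ACVR2A, a type II activin receptor, by 0.27 ± 0.08 (edgeR adjusted p = 0.00954; log2, SE). TGFBR3 lost its call without UNC2400 replicate 2 or UNC1999 replicate 3 (edgeR adjusted p = 0.0506 and 0.0599), and ACVR2A without UNC2400 replicate 3 or UNC1999 replicate 2 (0.0665 and 0.0602). ACVR1, a type I receptor used mainly by bone morphogenetic proteins, was at 0.12 ± 0.06. CFC1, the other co-receptor of this family, was too low to be tested.

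Of the other ligands 6 of 10 were tested and 1 rose, GDF11, by 0.29 ± 0.05 on the log2 scale (SE; edgeR adjusted p = 0.000179). The remaining ligands nearest to the threshold were INHBE at 0.34 ± 0.14 and TGFB1 at -0.19 ± 0.09 (log2, SE; edgeR adjusted p = 0.0544 and 0.0714). INHBE passed without UNC1999 replicate 1 (edgeR adjusted p = 0.00188) or UNC2400 replicate 3 (0.0403), and TGFB1 without UNC1999 replicate 3 (0.0352). INHBB, the beta B subunit of activin, was below the filter, with 12, 7 and 14 counts in the UNC2400 libraries and 3, 3 and 4 counts in the UNC1999 libraries. It entered the test and was lower with no filter (log2 fold change -1.79; edgeR adjusted p = 0.0173) and without UNC2400 replicate 2 or any 1 UNC1999 library (-2.15 to -1.68; 0.00478 to 0.0428). With 1 library left out INHBB could pass the filter through its higher group, UNC2400, alone, so these values are a description only.

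The extracellular list, which holds antagonists, latent-complex proteins and convertases, went both ways: 3 of 9 tested genes rose, 5 fell and FURIN did not pass, with a median log2 fold change of -0.30. The genes that rose were the activin-binding antagonists FSTL3, by 1.14 ± 0.11, and FST, by 0.44 ± 0.06, and LTBP3, by 0.62 ± 0.15 (log2, SE; edgeR adjusted p = 4.35e-07, 2.49e-05 and 0.00177). FSTL3 was at 6.77, 5.84 and 5.87 CPM against 11.4, 15 and 14.3 CPM, without overlap. The genes that fell were LTBP1, a latent TGF-beta binding protein, at -1.06 ± 0.09, the convertases PCSK6 at -1.01 ± 0.15 and PCSK5 at -0.44 ± 0.08, FSTL1 at -0.37 ± 0.06 and LTBP4 at -0.30 ± 0.05 (log2, SE; edgeR adjusted p = 9.43e-08, 3.57e-05, 0.000102, 8.69e-05 and 0.00016). PCSK6, which can cleave the NODAL precursor, went from 5.22 ± 0.112 to 2.59 ± 0.558 CPM (SD, n = 3 each). With length and GC offsets PCSK5 turned to 0.06 and FST went to 0.15, and neither passed.

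Of the other SMADs SMAD1, which carries bone morphogenetic protein signals, rose by 0.36 ± 0.08 (edgeR adjusted p = 0.000663) and SMAD5 by 0.12 ± 0.05 (edgeR adjusted p = 0.0387; log2, SE). The SMAD5 call was lost without any 1 of the 6 libraries (edgeR adjusted p = 0.0665 to 0.184) and with RLE scaling, no filter or DESeq2 (adjusted p = 0.0772, 0.236 and 0.0882). SMAD4, the common partner of SMAD2 and SMAD3, was at -0.10 with a 95% interval of -0.20 to 0.01, the inhibitory SMAD6 at 0.00 (-0.24 to 0.25) and SMAD9 at 0.75 (0.10 to 1.40; edgeR adjusted p = 0.0511). Without UNC1999 replicate 1, SMAD4 and SMAD9 passed (edgeR adjusted p = 0.0229 and 0.0145), and SMAD9 also without UNC2400 replicate 2 or UNC1999 replicate 3 (0.0351 and 0.0416).

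Of 10 nuclear partners and corepressors 1 rose, 5 fell and 4 did not pass, with a median log2 fold change of -0.12. SKIL (SnoN), a corepressor that binds SMAD2 and SMAD3 and is also a target of the pathway, was at 400, 401 and 405 CPM in the UNC2400 libraries and at 239, 211 and 199 CPM in the UNC1999 libraries. Its groups were far apart and its log2 fold change was -0.89 ± 0.06 (SE; edgeR adjusted p = 1.04e-08). FOXH1, the DNA-binding partner of SMAD2 in NODAL responses, rose by 0.32 ± 0.06 (SE; edgeR adjusted p = 0.000155), from 51.7, 47.3 and 48.3 CPM to 65.3, 58.6 and 60.2 CPM. With length and GC offsets FOXH1 went to 0.14 and did not pass. The other genes that fell were DRAP1, EP300, TRIM33 and TGIF2, at -0.20 to -0.13 on the log2 scale. Calls for 3 of them rested on single libraries. EP300 was lost without UNC2400 replicates 1 or 3 or UNC1999 replicate 3 (edgeR adjusted p = 0.0625 to 0.126), and with the offsets it was at 0.00 (0.985). TRIM33 was lost without any UNC2400 library or UNC1999 replicate 3 (0.0537 to 0.151) and turned to 0.04 with the offsets, and TGIF2 without any library other than UNC1999 replicate 1 (0.0915 to 0.143), and with upper-quartile scaling, no filter or DESeq2 (adjusted p = 0.0581, 0.0716 and 0.0706). Without UNC1999 replicate 1, SKI (0.15) and MED15 (-0.16) passed as well (edgeR adjusted p = 0.0131 and 0.014).

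Of 12 intracellular regulators of receptors and SMADs 4 rose, 2 fell and 6 did not pass (median log2 fold change -0.07). PMEPA1, a membrane protein that binds SMAD2 and SMAD3 and is induced by the pathway, went from 77.1, 83.4 and 83 CPM to 125, 137 and 140 CPM, by 0.72 ± 0.06 on the log2 scale (SE; edgeR adjusted p = 3.35e-08). DACT2 rose by 0.58 ± 0.13, BAMBI, a decoy receptor, by 0.24 ± 0.07, and RNF111, a ubiquitin ligase for SKIL and SMAD7, by 0.20 ± 0.05 (log2, SE; edgeR adjusted p = 0.00105, 0.00486 and 0.00353). NEDD4L, a ubiquitin ligase for activated SMAD2 and SMAD3, was at -0.49 ± 0.06, and ZFYVE9 (SARA), which presents SMAD2 to the receptor, at -0.41 ± 0.06 (log2, SE; edgeR adjusted p = 6.56e-06 and 2.03e-05). BAMBI turned to -0.05 and NEDD4L went to -0.02 with length and GC offsets. Without UNC1999 replicate 1, SMURF1 and SMURF2, ubiquitin ligases that SMAD7 recruits, also passed (-0.13 and -0.14; edgeR adjusted p = 0.0435 and 0.0465), and SMURF1 also without UNC2400 replicate 2 (0.0411).

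Genes known to respond to NODAL, activin or TGF-beta had the highest list median, 0.75 on the log2 scale: of 14 tested, 9 rose, 2 fell and 3 did not pass. CDKN1A, a cell cycle inhibitor also induced by p53, rose by 1.66 ± 0.15, OTX2, a homeobox gene of anterior and pluripotent cells, by 0.96 ± 0.07, and CTGF, a matrix-associated protein, by 0.94 ± 0.08 (log2, SE; edgeR adjusted p = 1.88e-07, 3.19e-08 and 1.21e-07). The pluripotency gene NANOG was at -0.14 ± 0.05 and FGF8 at -0.25 ± 0.10 (edgeR adjusted p = 0.0233 and 0.0434). NANOG was lost without UNC2400 replicates 2 or 3 or UNC1999 replicate 3 (edgeR adjusted p = 0.0568 to 0.127). FGF8 was lost with upper-quartile scaling and DESeq2 (adjusted p = 0.0587 and 0.0509) and without UNC2400 replicates 1 or 2 or UNC1999 replicates 2 or 3 (0.0988 to 0.194), and the rise of MIXL1, one of the 9, without those same libraries (0.102 to 0.234). MIXL1 also lost its call with RLE scaling, DESeq2 and limma-voom (adjusted p = 0.0519, 0.0738 and 0.0504) and was at 0.03 with length and GC offsets (0.87). T, FOXA2 and HHEX, at under 1 CPM, did not pass.

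The targets of early mesoderm and endoderm were scarcely detected. GSC had 0, 1 and 5 counts in the UNC2400 libraries and 3, 7 and 7 in the UNC1999 libraries, and EOMES had 2, 5 and 1 counts against 6, 10 and 2. GSC, EOMES, LHX1, SOX17, GATA6 and CDKN2B were removed by the low-count filter and so stand outside the count of 14; with no filter, GATA6 and CDKN2B were higher (edgeR adjusted p = 0.00406 and 0.0141). A low gene that passed the filter could do so through its higher group alone, so the median of this list is a description of the genes that passed. Other known targets are not in it, among them CER1, LEFTY1, LEFTY2, SMAD7 and PMEPA1, which were higher, and SKIL, which was lower.

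**Figure D4:**
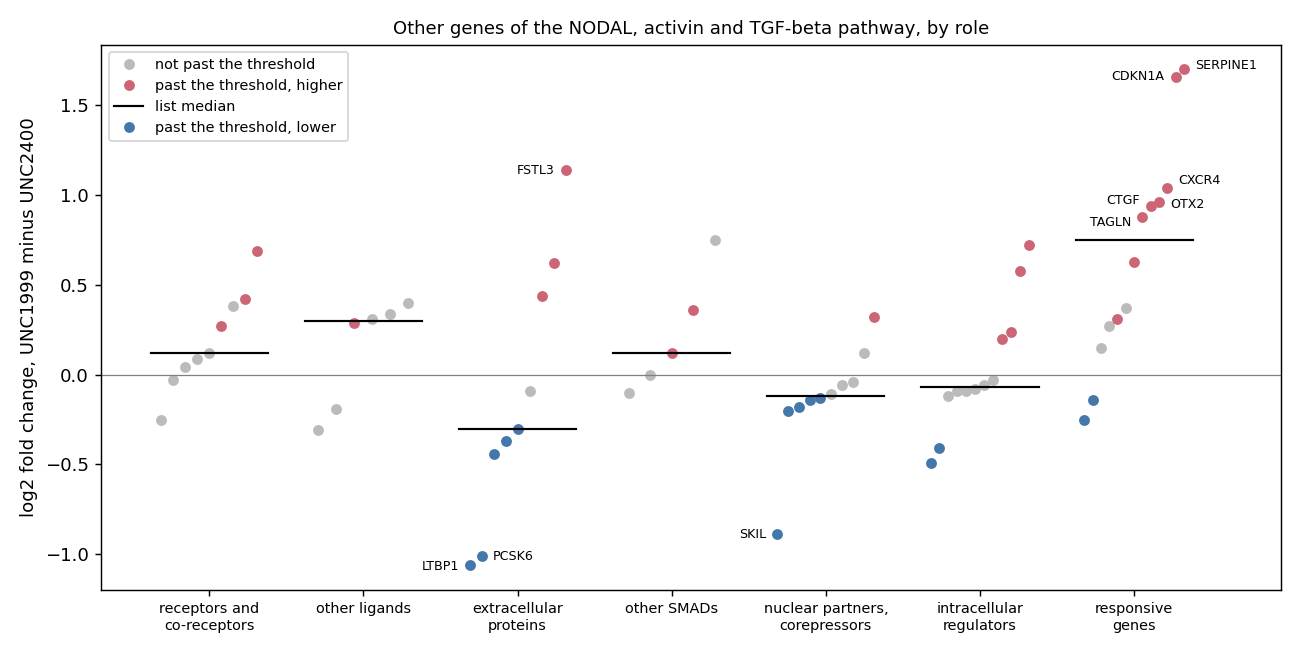
The y axis is the log2 fold change (UNC1999 minus UNC2400) and each point is 1 tested and reported gene in 1 of 7 lists (x axis); red points rose and blue points fell at an edgeR adjusted p under 0.05, grey points did not pass, and black lines are list medians. CDKN1A lies at 1.66 and LTBP1, the lowest point, at -1.06; names mark called genes at 0.85 or beyond, a limit set after the values were seen.

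Genes that lie next to the 10 on the chromosome were chosen by position alone. The nearest protein-coding gene on each side gave 20 sides and 19 distinct genes, of which 18 were in the count table and 16 could be tested. Of these 2 rose, 9 fell and 5 did not pass, where 26.8% of all genes tested rose and 25.9% fell. Their median log2 fold change was -0.35. On the sides of CER1, ZDHHC21 fell from 18.3 to 10.9 CPM, at -0.75 ± 0.09, and FREM1 from 3.77 to 2.55 CPM, at -0.57 ± 0.17 (log2, SE; edgeR adjusted p = 2.39e-06 and 0.00928). On the sides of NODAL, PALD1 was at -0.57 ± 0.07 and EIF4EBP2 at -0.14 ± 0.05 (log2, SE; edgeR adjusted p = 2.79e-06 and 0.0246). Both neighbours of each of these genes were thus lower while CER1 and NODAL were higher. The FREM1 call was lost without UNC2400 replicate 2 (edgeR adjusted p = 0.0716) and with length and GC offsets (-0.32; 0.111), and that of EIF4EBP2 without any UNC2400 library or UNC1999 replicate 3 (0.0546 to 0.109).

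SMAD7 also lay between genes that fell, CTIF at -0.91 ± 0.11 and DYM at -0.64 ± 0.06 (log2, SE; edgeR adjusted p = 2.3e-06 and 3.31e-07). INHBA, which overlapped between the groups, lay between C7orf10 (SUGCT) at -0.90 ± 0.17 and GLI3 at -0.57 ± 0.09 (log2, SE; edgeR adjusted p = 0.000305 and 5.44e-05). On the outer sides of the LEFTY genes TMEM63A was at -0.62 ± 0.07 and SDE2 at 0.50 ± 0.06 (log2, SE; edgeR adjusted p = 2e-06 and 5.49e-06). GDF3 lay beside DPPA3, a germline and naive pluripotency gene, which was at 0.40 ± 0.12 while GDF3 was lower (log2, SE; edgeR adjusted p = 0.00799, and 0.0588 without UNC1999 replicate 3, where DPPA3 was at 0.31). With length and GC offsets DPPA3 was at 0.14 (edgeR adjusted p = 0.311). LRRC2 beside TDGF1, ZBTB7C beside SMAD2, and SMAD6 and AAGAB beside SMAD3 did not pass, but AAGAB passed without UNC1999 replicate 1 (-0.16; edgeR adjusted p = 0.0126). APOBEC1 and SKOR2, beside GDF3 and SMAD2, were too low to be tested. With no filter, and without UNC2400 replicate 3 or any 1 UNC1999 library, SKOR2 was tested and lower (log2 fold change -1.73 to -1.50; edgeR adjusted p = 0.00691 to 0.0256). With 1 library left out SKOR2 could pass the filter through its higher group, UNC2400, alone, so these values are a description only.

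Genomic span moved with the fold change over all genes, so each gene is set beside its span class. With the tested genes that had a length in GENCODE release 29 split into 5 classes of 2967 genes, the median log2 fold change was 0.20 in the shortest (up to 9144 bases) and -0.28 in the longest (from 101140 bases). In the shortest class 42.4% of genes were higher and 8.86% lower, and in the longest 9.77% were higher and 54.3% lower. CER1 (2994 bases), LEFTY2 (4892), GDF3 (5995) and TDGF1 (7930) fall in the shortest class, where GDF3 at -0.32 and TDGF1 at 0.05 lie below the class median. SMAD2 (122190 bases) and SMAD3 (131433 bases) fall in the longest, where SMAD3 at 0.53 lies above the class median and SMAD2 at -0.19 close to it. Of the 16 neighbours tested, PALD1, ZDHHC21, LRRC2, SMAD6 and AAGAB fall in the second longest class (44534 to 101050 bases). In that class 20% of genes were higher and 36.1% lower. A further 5 neighbours belong by their span to the longest class. C7orf10 (SUGCT) had no span under its name in the counts and could not be placed, so the number may be higher. With offsets for length and GC content CER1 was at 3.63, NODAL at 0.76, LEFTY2 at 0.52, LEFTY1 at 0.51, GDF3 at -0.59 and TDGF1 at -0.23 on the log2 scale. The part of span in the differences of single genes was not tested.

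**Figure D5:**
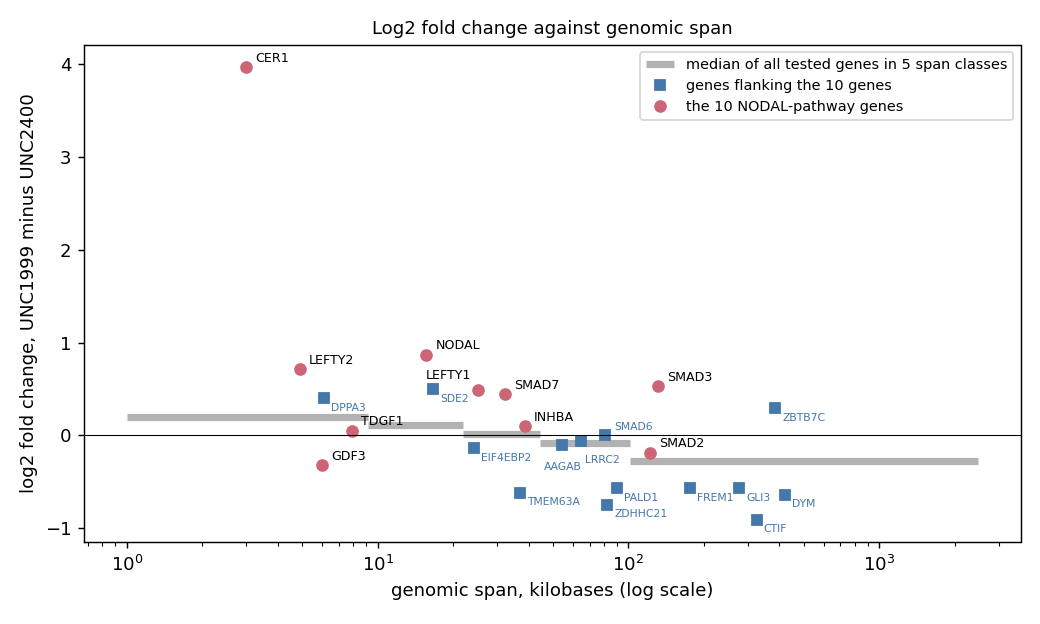
The x axis is the genomic span in kilobases on a log scale and the y axis the log2 fold change (UNC1999 minus UNC2400); red circles are the 10 genes, blue squares the tested and reported genes beside them that have a span, and grey bars the medians of all tested genes in 5 span classes, the shortest drawn from 1 kilobase on. The grey bars step down from 0.20 to -0.28, with CER1 at 3.97 far above its class and SMAD3 at 0.53 above the class of the longest genes.

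The genes whose log2 CPM over the 6 libraries followed CER1 most closely, among 12558 candidates, were THG1L, FDXR, RCE1, ZNF554 and LNP1, with Pearson r of 0.9999 to 0.9995. Their log2 fold changes were far below that of CER1, 0.72 for THG1L and 0.37 for FDXR. For NODAL they were GCNT1, PCDH8, NRSN2, RDH14 and MSC, with r of 0.9990 to 0.9986. PCDH8, a protocadherin, differed most of these, from 4.55 to 11.4 CPM, or 1.32 ± 0.11 on the log2 scale (SE). These r values describe 6 libraries in 2 groups and are set mostly by the difference between the groups, so neither they nor the differences of these genes carry a p.

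In the authors' deposited table the log2 fold changes of the 10 genes were 3.93 for CER1, 0.85 for NODAL, 0.69 for LEFTY2, 0.51 for SMAD3, 0.47 for LEFTY1, 0.42 for SMAD7, 0.08 for INHBA, 0.03 for TDGF1, -0.21 for SMAD2 and -0.34 for GDF3. The order of the genes was the same as with edgeR on the counts.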

How the data were processed

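Each library came from 200 ng of RNA, poly(A)-selected and prepared with a directional kit, per the labels' protocols. The authors deposited whole-number raw read counts per gene name. The tools named are TopHat2 2.0.13, Trim Galore 0.4.0, Subread 1.5.0 and featureCounts, with hg19, per the submitters' processing notes. Not given in the sources used here are the annotation, the strand setting and the treatment of multi-mapped reads. Its name marks the deposited count table as free of duplicates, without saying of what. The authors also deposited log2 expression values marked as batch-corrected, and a comparison table with p-values, test scores and log2 fold changes, per the file headers; only its fold changes are printed, and their sign was checked against the counts.

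Counts were tested with edgeR 4.0.16 in R 4.3.3 (TMM, default low-count filter on group, two-sided quasi-likelihood F test, Benjamini-Hochberg over 17596 genes, threshold 0.05). CPM are TMM-scaled. Groups and replicate numbers came from the titles. Alternatives were RLE and upper-quartile scaling, no filter, the replicate number as a block, length and GC offsets, each library left out, LEFTY1 and LEFTY2 summed, DESeq2 1.42.0 and limma-voom (limma 3.58.1). The fit was tested on simulated data. GENCODE release 29 gave spans, exon lengths and transcript sequences, and RefSeq (GRCh38.p14) promoters and neighbours; 8 of the 10 genes matched a promoter. Neither is the build of the counts, so they serve as gene properties.

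The 10 genes, the pathway lists and the marker lists were chosen with earlier results of these data known. Genes named are the 10, up to 4 of each list with the smallest p plus those that a count of 5 or fewer refers to, the neighbours, and the 5 genes that correlate best with CER1 and with NODAL over log2 CPM (prior count 2). Among the genes counted, 2 are not reported here singly.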

Additional observations from a re-analysis of the deposited data

How the results depend on the processing

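The count of genes past the threshold was 9268 (4714 higher, 4554 lower), 8345 with DESeq2, 9236 with limma-voom, 8494 with length and GC offsets, and 7747 to 10076 with 1 library left out. The offsets, which cover 84.3% of tested genes, reversed, among the genes reported, SMAD2 (0.13 in place of -0.19 on the log2 scale), BAMBI (-0.05), CREBBP (0.31), LDLRAD4 (0.42), MED15 (0.16), PCSK5 (0.06), TRIM33 (0.04) and USP15 (0.23), and TDGF1, which overlapped between the groups, went from 0.05 to -0.23. They also took the difference between LEFTY2 and LEFTY1 from 0.22 to 0.00; the LEFTY1 span used, 25101 bases, is far above the 4892 bases of LEFTY2, and the cause was not tested. Of the neighbouring genes, 2 were higher, 1 with the offsets, and 1 to 2 with 1 library left out. The other scaling, filter, test, block and leave-one-out settings run on all 10 genes kept the direction of the 8 genes whose groups did not overlap.

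Same-numbered libraries had correlations of 0.0237, 0.0839 and 0.124 in their deviations from the group means. Libraries of different numbers had -0.136 to 0.0618. Each UNC1999 library correlated best with its own number, as did UNC2400 replicates 2 and 3. UNC2400 replicate 1 correlated best with UNC1999 replicate 2 (0.0618). These values were small and the main fit did not pair the libraries, but the labels do not say whether the numbers mark a batch. With the replicate number as a block the genes past the threshold numbered 9562, against 9268 without it. INHBE, SMAD9 and TGFB1 were then added to the calls among the other genes named. Depth limits INHBA, GSC and EOMES, with at most 21 counts in any library.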
